A study of Mus musculus with 4 samples.

Results

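Early erythroid progenitors are marrow cells that have entered the red cell lineage but hold little haemoglobin RNA. Along this lineage the transcription factor GATA1 and its partner KLF1 switch on the genes for haem synthesis, iron uptake, the red cell membrane and the globin chains, while genes of stem and progenitor cells are switched off. The cells divide several times on this path and become smaller. These cells were drawn from single-cell libraries of bone marrow mononuclear cells, isolated on Ficoll from the femur and tibia of TLR9-/- and wildtype (WT) mice, all C57BL6/J, untreated in both groups. TLR9 is an endosomal receptor for unmethylated CpG DNA. The TLR9-/- mice carry the disrupted allele in every cell, and the mice of both genotypes were bred in separate cages. Each genotype had 2 libraries, numbered 1 and 2, with 1 mouse each, and the age and sex of these mice are not given in the sources used here. The libraries came from 2 experiments, each with 1 TLR9-/- and 1 WT mouse, and whether a number marks an experiment is not in the labels, so p-values measure only the spread between these libraries.

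Members were selected on measured UMI counts. A cell counted as one when the unique molecular identifiers (UMIs, 1 for each captured molecule) of Car1, Klf1, Gata1 and Ermap summed to at least 4, with the 4 adult globin genes Hba-a1, Hba-a2, Hbb-bs and Hbb-bt below 20% of its UMIs. Members also had at most 1 UMI of the platelet gene Pf4 and at most 4 of the basophil proteases Mcpt8 and Prss34. Of 39167 cells with 200 to 10000 detected genes and at most 10% mitochondrial UMIs, 1995 were members (5.09%). Another 385 cells had enough marker UMIs but too much globin RNA, 20 were removed by Pf4 and 8 by the proteases. Members shared 2 cell barcodes between the TLR9-/- library 2 and the WT library 2 and 1 between both WT libraries, and 0 between the other pairs. The kept cells held 50204578 and 63958243 UMIs in TLR9-/- and 31210188 and 41384657 in WT. Both WT libraries stood apart in 1 respect each: neutrophil RNA was found in 65.02% of the members of the WT library 2, and the WT library 1 held most globin-rich cells and the highest interferon-stimulated RNA. Results without either are given below.

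These genes chose the cells, so their levels are a description. Car1, a carbonic anhydrase and an early red cell marker, was seen in 93.7% of the members, Klf1 in 90.6%, Gata1 in 75.3% and Ermap, an erythroid membrane protein, in 86.3%. All 4 were seen in 60.1% of the members, and a single one in 2.16%. At the edge of the rule, the 103 members with exactly 4 marker UMIs had a median of 1.83% of their UMIs on 39 erythroid genes (progenitor, haem synthesis and membrane lists), against 1.43% in the 117 cells left outside with 3. The 121 members with 15% to 20% globin had 3.34%, and the 83 cells left outside with 20% to 25% had 3.47%. Values thus lay close to each other on both sides of both limits, while all other kept cells had a median of 0.0679%.

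The bases before the starts of 3 of the marker genes are shown because GATA1 binds the letters GATA and KLF1 binds CACCC. They are from RefSeq on GRCm38.p6, 5′ to 3′, cut where an annotated exon begins. Capitals mark GATA and CACCC on either strand (TATC and GGGTG are the same letters on the other strand), and a GGGTG can share its last base with a GATA.
Klf1, chr8:84901732-84901927, plus strand: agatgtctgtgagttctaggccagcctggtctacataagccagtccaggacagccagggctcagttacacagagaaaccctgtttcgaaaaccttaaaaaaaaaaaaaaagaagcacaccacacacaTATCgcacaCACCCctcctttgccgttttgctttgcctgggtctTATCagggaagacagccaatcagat
Gata1, chrX:7967911-7968160, minus strand: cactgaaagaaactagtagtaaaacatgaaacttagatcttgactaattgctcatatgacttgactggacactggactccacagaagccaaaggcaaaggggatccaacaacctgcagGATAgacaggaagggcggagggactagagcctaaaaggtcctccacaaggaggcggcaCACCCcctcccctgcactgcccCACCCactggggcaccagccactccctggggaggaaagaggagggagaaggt
Ermap, chr4:119190012-119190245, minus strand: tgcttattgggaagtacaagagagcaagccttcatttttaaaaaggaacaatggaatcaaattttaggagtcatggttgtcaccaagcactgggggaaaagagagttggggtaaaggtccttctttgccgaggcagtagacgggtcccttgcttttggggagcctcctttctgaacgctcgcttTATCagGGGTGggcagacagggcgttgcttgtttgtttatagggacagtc
Each of the 3 stretches held both motifs. So many starts hold them that this is a description only: in 250 bases before 32851 annotated starts, 53.6% held GATA, 52.0% CACCC and 25.2% both. Car1 is named only.

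The share of members followed the library number rather than the genotype. Members made up 3.52% of the cells of the TLR9-/- library 1 (379 of 10781) and 6.54% of the TLR9-/- library 2 (583 of 8918). They made up 4.01% of the WT library 1 (424 of 10573) and 6.85% of the WT library 2 (609 of 8895). Both libraries numbered 2 were above both libraries numbered 1, and the genotypes overlapped. The rule counts raw UMIs, and depth also went with the number within each genotype. Kept cells had a median of 2545 and 3618 UMIs in TLR9-/- 1 and 2 and of 1759 and 2287 in WT 1 and 2. Exact 95% binomial intervals, which cover counting error only, ran from 3.18% to 3.88% and from 6.03% to 7.07% for TLR9-/-, and from 3.64% to 4.40% and from 6.33% to 7.39% for WT. The means were 5.03% ± 2.14 in TLR9-/- and 5.43% ± 2.01 in WT (SD, n = 2 libraries per genotype), a difference of −0.40 percentage points that was smaller than the spread within each genotype (exact two-sided permutation test, p = 0.67, smallest possible p 0.33). Within same-numbered libraries the share was lower in TLR9-/- both times, by −0.495 points for number 1 and −0.309 for number 2, and 2 pairs allow no test under 0.05. With members of under 5% globin alone the direction turned, to 2.52% against 2.22% for number 1 and 5.16% against 4.82% for number 2. Globin-rich cells above the limit also went with the number, with 129 and 221 in the libraries numbered 1 and 11 and 24 in those numbered 2 (TLR9-/- first).

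**Figure D1:**
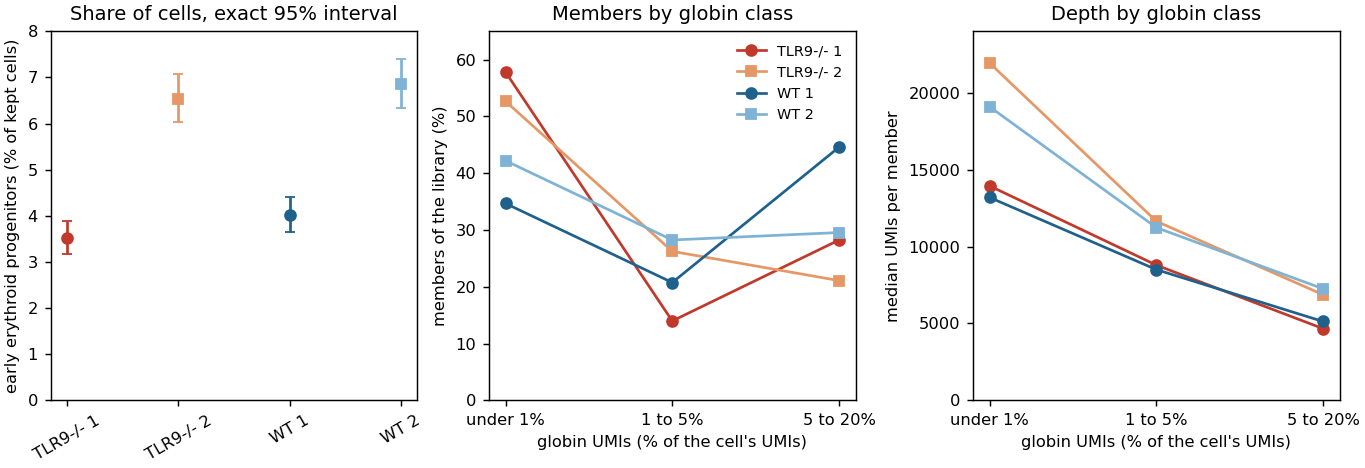
Left, members as a percentage of all kept cells in each library, with exact 95% binomial intervals; middle, the percentage of each library's members in 3 classes of globin UMIs; right, the median UMIs per member in each class. The libraries numbered 2 held the larger shares of members, both TLR9-/- libraries had more of their members under 1% globin (57.8% and 52.7%) than both WT libraries (34.7% and 42.2%), and depth fell with globin in all 4 libraries.

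Members were deeply sampled, and a threshold on raw marker UMIs favours such cells. Their median was 10714 UMIs and 2623 genes, against a median of 2238 UMIs in all other kept cells, and it was 9425 and 13305 UMIs for TLR9-/- 1 and 2 and 7270 and 11447 for WT 1 and 2. Summed over members, the libraries held 4369491, 9783892, 4112799 and 8458948 UMIs in the same order, so values from the libraries numbered 2 rest on more molecules. Counts below are UMIs summed over the members of a library, scaled to a total of 1000000 (CPM).

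Beside the genes of the rule, several genes set the members apart from all other kept cells. Each was ranked by the ratio of its mean CPM among 1139 genes with at least 100 CPM in every library's members, and a cluster of cells against the rest is no test. The metallothionein Mt2 led with 274 CPM in members and 3.02 in other cells. It was followed by Sphk1, a kinase that makes sphingosine 1-phosphate (136 against 2.25 CPM), by Smim1, the carrier of the Vel blood group (507 against 14.2 CPM), and by Bex4, Gstm5 and C1qtnf12. Some of these genes belong to the members and less to their globin-rich successors. Mt2 was at 1.09 CPM in the 385 globin-rich cells, C1qtnf12 at 57.8 against 682 CPM in members, and Stard10 at 34.3 against 182 CPM. Others continued upwards, such as the water channel Aqp1 (363 CPM in members, 1197 in globin-rich cells) and the haem-binding protein gene Hebp1 (411 against 711 CPM).

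Cells chosen for Kit and Cd34 UMIs served as a reference, so their Kit and Cd34 levels follow from the choice. They are no earlier red cell stage by their genes, with 25442 to 38005 CPM of the granule progenitor list, against 1484 to 3016 CPM in members. Kit, the receptor for stem cell factor, was at 35.6 ± 3.505 CPM in the members and at 113 ± 33.4 CPM in 1022 of these cells, which had no marker UMI (SD, n = 4 libraries). It was at 19.3 ± 3.46 CPM in all other kept cells, below the members in all 4 libraries. Cd34 was at 2.23 ± 1.80 CPM, Flt3 at 2.15 ± 0.55 CPM and Hlf, a stem cell factor, at 0.912 ± 0.617 CPM. Muc13, a mucin of progenitors, was about as high in members (7.49 ± 2.75 CPM) as in all other kept cells (6.98 ± 2.07 CPM). Of 13 stem and progenitor genes, Kit alone was higher in members than in all other kept cells in every library. The same held for 12 of 12 erythroid progenitor genes, 17 of 17 membrane genes, 9 of 10 haem synthesis genes, 10 of 14 erythroid factor genes and 3 of 11 Epo signalling genes, and for 0 of 8 neutrophil and 0 of 10 B cell genes. It also held for 12 of 12 ribosome biogenesis, 37 of 40 S phase and 37 of 52 G2/M genes. The share over all genes was not counted. These are descriptions of cells chosen by related genes. The erythropoietin receptor gene Epor was at 104 ± 11.1 CPM and the factor gene Tal1 at 118 ± 13.6 CPM in members. The factor genes Lyl1 and Myb were lower in members (54.4 ± 5.91 and 119 ± 24.3 CPM) than in the Kit and Cd34 cells (116 ± 19.2 and 283 ± 47.2 CPM), which by their choice hold no UMI of the marker genes.

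Within the members, globin content ordered the cells along the lineage. Globin took under 1% of the UMIs in 930 members (46.6%), 1% to 5% in 466 (23.4%) and 5% to 20% in 599 (30.03%). Median depth fell from 17559 UMIs and 3547 genes to 10705.5 UMIs and 2592.5 genes and then to 5764 UMIs and 1696 genes. CPM sets one gene against the total, so fewer molecules per cell and a smaller share of a gene cannot be told apart by it alone. The genes described along the classes were picked after their values were seen, and no test was run on classes cut from the rule's own measure.

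Several genes fell along the 3 classes. Of 7 stem and progenitor genes with at least 50 UMIs, 4 were lower in the 5% to 20% class in every library, where 43.6% of 9721 genes were. Mt1 went from 1309 ± 179 to 237 ± 66.7 and 70.8 ± 56.4 CPM (SD, n = 4 libraries). The progenitor factor Myb went from 164 ± 26.5 to 52.7 ± 28.8 and 27.9 ± 19.5 CPM. Gata2, the GATA factor that precedes GATA1, was at 28.5 and 18.1 CPM in TLR9-/- and 13.3 and 12.7 CPM in WT members under 1% globin. In the 5% to 20% class it was at 0 in 3 libraries and at 1.78 CPM in the WT library 1. Kit dropped from 52.3 ± 6.02 to 5.69 ± 4.84 CPM. All 12 genes of a ribosome biogenesis list were lower in the 5% to 20% class than under 1% in each of the 4 libraries. Npm1, a nucleolar chaperone, was 5.75-fold lower in the upper class and nucleolin (Ncl) 4.43-fold.

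Genes of the mature red cell rose. All 17 genes of the membrane skeleton list were higher in the 5% to 20% class in every library, as were 9 of 10 haem synthesis genes, against 19.5% of all 9721 genes. Slc4a1, the band 3 anion exchanger, went from 26.0 ± 5.07 to 498 ± 102 and 1236 ± 183 CPM. Alas2, the erythroid first enzyme of haem synthesis, went from 9.51 ± 2.29 to 231 ± 85.4 and 797 ± 272 CPM, an 83.8-fold rise. Slc25a37 (mitoferrin, the mitochondrial iron importer) rose 16.2-fold and the transferrin receptor gene Tfrc 3.59-fold. Among the rule's own markers, Car1 was 2.31-fold lower in the upper class, while Klf1, Gata1 and Ermap were 2.03-fold, 1.65-fold and 1.73-fold higher, where a minimum of 4 raw UMIs in shallower cells itself raises their CPM. The theta-like globin gene Hbq1b, which the rule does not use, went from 2.37 ± 0.885 to 154.8 ± 16.1 CPM. Among 14 erythroid transcription factor genes, 9 were higher and 4 lower in all 4 libraries, with Sox6 13.7-fold higher and E2f2 10.1-fold higher, and Nfia 3.78-fold and Bcl11a 2.46-fold lower.

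**Figure D2:**
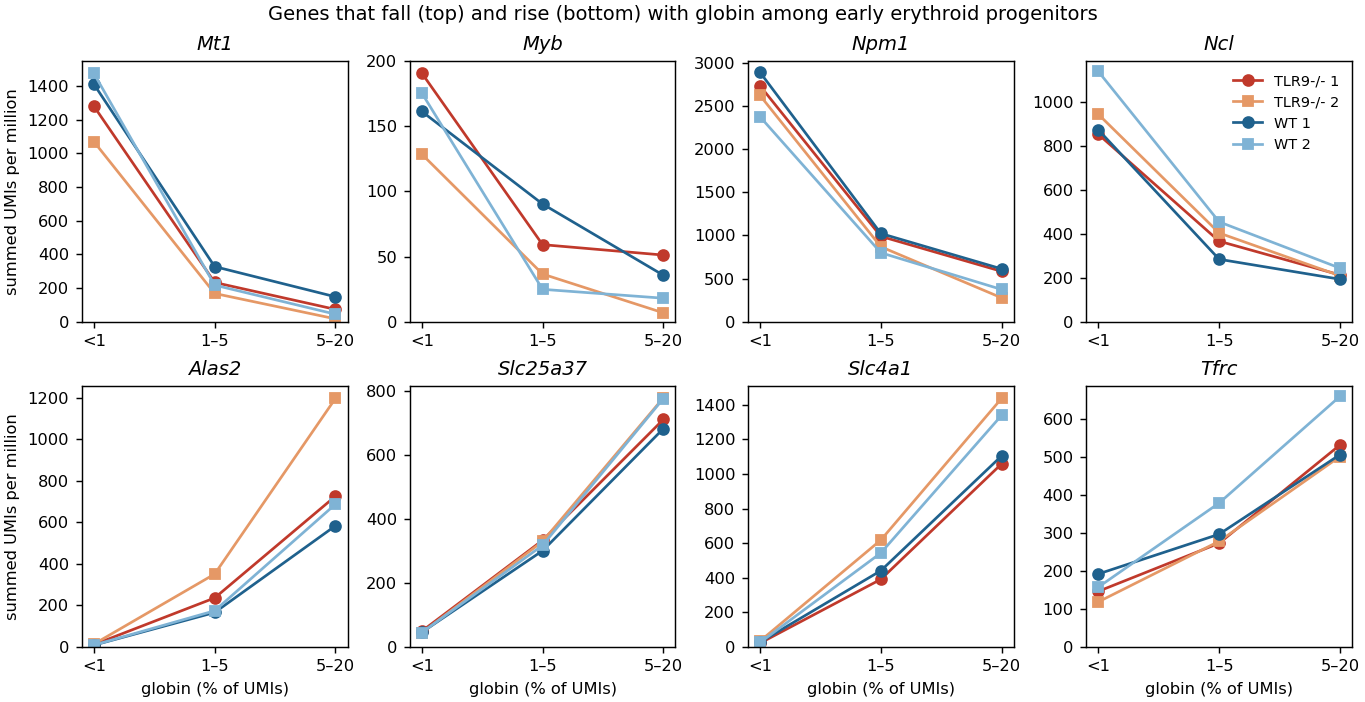
CPM (UMIs summed over the cells of a class, scaled to a total of 1000000) of 8 genes in members with under 1%, 1% to 5% and 5% to 20% globin UMIs, 1 line per library. Mt1, Myb, Npm1 and Ncl were lower at 5% to 20% than under 1% in all 4 libraries, and Alas2, Slc25a37, Slc4a1 and Tfrc were higher in all 4.

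Some interferon-stimulated genes were higher with more globin. Isg15, a ubiquitin-like interferon product, was at 47.0 ± 28.1 CPM under 1% globin, 149 ± 63.6 CPM at 1% to 5% and 669 ± 272 CPM at 5% to 20%, and at 2523 ± 1332 CPM in the globin-rich cells outside the rule. Of 19 genes of this list with at least 50 UMIs, 10 were higher in the upper class in every library and 0 were lower in every library, against 19.5% higher and 43.6% lower of all 9721 genes. The summed list stood at 702 and 900 CPM in the TLR9-/- members and at 1408 and 568 CPM in the WT members, so the WT library 1 was the highest and the WT library 2 the lowest. The same order held in all other cells, with 2264 and 2536 against 4368 and 1748 CPM.

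Nearly all members held cell cycle RNA. With every member thinned to 2000 UMIs, 94.98% ± 2.01 had at least 3 UMIs of 40 S phase genes and 98.6% ± 0.690 at least 3 of 52 G2/M genes (SD, n = 4 libraries, 1949 members). The 46 shallower members were left out, 8, 17, 7 and 14 per library in the order TLR9-/- 1, TLR9-/- 2, WT 1 and WT 2. Background was high for the second list: among neutrophils with at least 5 UMIs of Retnlg, which do not divide, 16.6% ± 10.2 passed for S phase and 68.4% ± 5.60 for G2/M, so mean UMIs are more telling than shares. These were the deeper neutrophils, with at least 2000 UMIs and at most 400 per library. Shallower ones left out numbered 643, 446, 264 and 576 in the same order. Members averaged 12.1 ± 0.831 S phase UMIs and 24.98 ± 2.11 G2/M UMIs of 2000, neutrophils 1.52 ± 0.776 and 6.62 ± 2.01, and the Kit and Cd34 cells 5.93 ± 0.472 and 10.9 ± 0.889. Within members both rose with globin, S phase UMIs from 8.26 ± 0.508 under 1% to 16.8 ± 2.20 at 5% to 20%, and G2/M UMIs from 16.2 ± 0.878 to 38.4 ± 6.84. In the globin-rich cells S phase UMIs were back at 8.73 ± 3.08 while G2/M UMIs stood at 57.8 ± 16.2, with only 4 cells from the TLR9-/- library 2 and 18 from the WT library 2 deep enough. By genotype, 92.2% and 94.9% of TLR9-/- members and 96.4% and 96.5% of WT members passed for S phase, and 97.8% and 98.2% against 99.0% and 99.3% for G2/M. The genotypes did not overlap, and the exact two-sided permutation test gave the smallest p it can for 2 against 2 (p = 0.33 for both). The mean UMIs of 2000 overlapped, with 10.96 and 12.9 against 12.1 and 12.5 for S phase and 22.4 and 27.5 against 25.4 and 24.7 for G2/M. Without thinning the S phase shares were 97.4% and 99.5% against 99.1% and 99.2%, which overlap.

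The 4 globin genes differed between libraries in kind as well as in amount. Beta-globin made up 82.8% and 83.5% of the members' globin UMIs in the TLR9-/- library 1 and the WT library 1, and 55.0% and 52.5% in the libraries numbered 2. Within beta-globin, Hbb-bt, the second adult beta gene, took 7.05% and 8.02% of the UMIs in TLR9-/- members and 15.01% and 23.7% in WT members. This order held in each class: under 1% globin Hbb-bt had 3.44% and 5.31% against 25.5% and 39.2%, and in the globin-rich cells 8.55% and 9.86% against 12.2% and 18.2%. Hbb-bs and Hbb-bt are near-identical copies and reads can be split between them, so these shares are uncertain. Their sum took part in the rule, and no test was run.

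**Figure D3:**
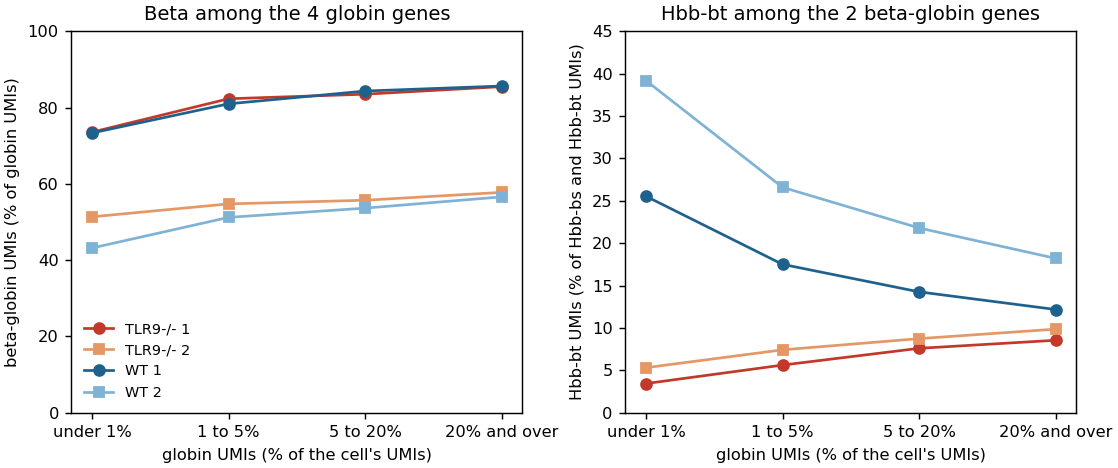
Left, beta-globin UMIs (Hbb-bs and Hbb-bt) as a percentage of the UMIs of the 4 globin genes; right, Hbb-bt as a percentage of both beta-globin genes, in 4 classes of globin content, 1 line per library. The beta share went with the library number, and the Hbb-bt share was lower in both TLR9-/- libraries than in both WT libraries in each class.

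The comparison of genotypes asked which genes differed in these cells between TLR9-/- and WT mice. Tlr9 itself (ENSMUSG00000045322, chr9:106222598-106226883) was barely seen in members, with 0 and 1 UMIs in TLR9-/- and 5 and 3 in WT members, and was too low to test. In the members 10114 genes were tested by edgeR's quasi-likelihood test with Benjamini-Hochberg adjustment. At an adjusted p under 0.05, 18 were higher in TLR9-/- members (0.178%) and 29 lower (0.287%), 0.465% in either direction. Many more genes passed with the library number as a replicate block, and with no filter on low counts, as given in the last section. In all other kept cells of the same mice, 40 of 13969 genes passed (0.286%). Without the WT library 1, 261 genes passed, without the WT library 2, 113, and without the TLR9-/- library 2, 30. Coordinates are those of GENCODE on GRCm38, and CPM in this comparison includes edgeR's TMM scaling.

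Mst1r was present in the members of TLR9-/- mice and at 0 in those of WT mice. It encodes the receptor tyrosine kinase RON, called STK in mice, and in erythroid cells it is known for a short form, made from a start inside the gene, that is the product of the Friend virus susceptibility locus Fv2, at which inbred strains differ. Mst1r (ENSMUSG00000032584, chr9:107906873-107920383) had 158 UMIs (36.1 CPM) in the TLR9-/- library 1, 427 UMIs (42.4 CPM) in the TLR9-/- library 2, and 0 in both WT libraries. The groups did not overlap, and the level was at least 165-fold higher in TLR9-/- members, counting 3 UMIs over the WT group as the floor (edgeR adjusted p = 3.11e-06, 7.44e-05 or below in 13 of 13 alternatives). In TLR9-/- mice 92 of 379 members (24.3%) and 166 of 583 (28.5%) held at least 1 UMI, against 0 of 424 and 0 of 609. The UMIs were concentrated in the earliest class, with 48.3 and 60.7 CPM under 1% globin, 3.38 and 5.37 CPM at 1% to 5%, and 3.41 and 0 CPM above. The Kit and Cd34 cells of both genotypes held next to none, with 0 UMIs in both TLR9-/- libraries and 1 and 2 UMIs in WT. In all other kept cells the levels were 0.502 and 0.406 CPM in TLR9-/- and 1.33 and 0.881 CPM in WT, so the order was opposite to that in members. The interaction of genotype and cell group passed (edgeR adjusted p = 3.65e-04), as for 10 of 13280 genes (0.0753%).

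Mst1r lies 1.68 Mb from Tlr9 on chromosome 9. Of 142 tested genes within 10 Mb of Tlr9, 2 passed (1.41%, against 0.465% of all genes), Mst1r and its neighbour Uba7, which lies 55.1 kb from it and was named after its values were seen. Uba7, an enzyme that activates the modifier ISG15, had 17.1 and 20.6 CPM in TLR9-/- and 44.8 and 35.6 CPM in WT members (log2 fold change −1.07 ± 0.20 (SE), edgeR adjusted p = 0.0441, 1.04e-04 to 0.622 over the alternatives). Whether the sequence around Tlr9 differs between these mice was not tested. The reference stretch before the annotated start inside Mst1r is shown because the short form begins there. It is from RefSeq on GRCm38.p6, lies in an intron of the full-length gene, and capitals mark GATA.
Mst1r, chr9:107914928-107915002, plus strand: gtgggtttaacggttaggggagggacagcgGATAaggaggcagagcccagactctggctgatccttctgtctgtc
It held 1 GATA and 0 CACCC, where 18.9% of all annotated starts held a GATA in the same 75 bases. The files count UMIs per gene, so which start the Mst1r molecules came from cannot be read from them.

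Cela1, the gene of pancreatic elastase 1, showed the opposite pattern. Cela1 (ENSMUSG00000023031, chr15:100674421-100687921) had 11 UMIs (2.51 CPM) and 31 UMIs (3.08 CPM) in TLR9-/- members and 248 UMIs (60.4 CPM) and 630 UMIs (77.3 CPM) in WT members. Both TLR9-/- values lay far below both WT values, with a log2 fold change of −4.58 ± 0.24 (SE, edgeR adjusted p = 2.49e-06, at most 2.48e-05 in 13 of 13 alternatives). At least 1 UMI was found in 2.64% and 4.97% of TLR9-/- members and in 37.0% and 54.0% of WT members. In WT it was present through all globin classes, at 76.4 and 81.9 CPM under 1% globin and 42.8 and 62.9 CPM at 5% to 20%. The Kit and Cd34 cells had 10.7 and 11.5 CPM in TLR9-/- and 13.2 and 18.3 CPM in WT. All other kept cells had 4.82 and 6.04 CPM in TLR9-/- and 6.86 and 5.83 CPM in WT, which overlap. Among them the globin-rich cells had 2.87 and 0 CPM (1 and 0 UMIs) in TLR9-/- and 36.0 and 19.4 CPM (24 and 2 UMIs) in WT. The difference in members exceeded that in other cells by −4.44 ± 0.27 on the log2 scale (edgeR interaction, adjusted p = 3.14e-04). The bases before its start are shown because this difference was among the largest that did not rest on a group at 0, with GATA in capitals and CACCC searched for but not found.
Cela1, chr15:100687922-100688170, minus strand: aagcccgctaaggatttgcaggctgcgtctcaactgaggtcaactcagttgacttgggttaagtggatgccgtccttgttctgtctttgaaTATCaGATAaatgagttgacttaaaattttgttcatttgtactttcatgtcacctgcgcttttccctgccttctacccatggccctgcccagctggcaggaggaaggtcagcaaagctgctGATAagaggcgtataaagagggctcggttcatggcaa
It held 3 GATA, and 53.5% of all annotated starts held at least 1 in the same 249 bases.

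Rps6ka1 and Hist1h4i completed the genes that passed both tests, with Igkv1-110, which only 3 and 4 members of the WT libraries 1 and 2 held. Rps6ka1 encodes the kinase RSK1, which acts downstream of ERK, and was named after its values were seen. It had 22.2 and 26.1 CPM in TLR9-/- members and 59.6 and 62.3 CPM in WT members (log2 fold change −1.33 ± 0.18 (SE), edgeR adjusted p = 0.00522). In all other kept cells together it had 80.2 and 108 CPM against 68.8 and 88.6 CPM, which was not lower (edgeR interaction −1.64 ± 0.17, adjusted p = 0.00714). Among them, however, the globin-rich cells had 11.5 and 0 CPM (4 and 0 UMIs) in TLR9-/- against 61.6 and 107 CPM (41 and 11 UMIs) in WT. In members under 1% globin it did not pass (log2 fold change −0.94, edgeR adjusted p = 0.0717, the highest of 13 alternatives). Hist1h4i, a histone H4 gene, had 32.0 and 18.5 CPM against 193 and 135 CPM (log2 fold change −2.73 ± 0.30 (SE), edgeR adjusted p = 0.0116). It was also lower in other TLR9-/- cells, 42.3 and 22.6 against 125 and 72.6 CPM, but by less (interaction −1.15 ± 0.15, adjusted p = 0.0300).

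**Figure D4:**
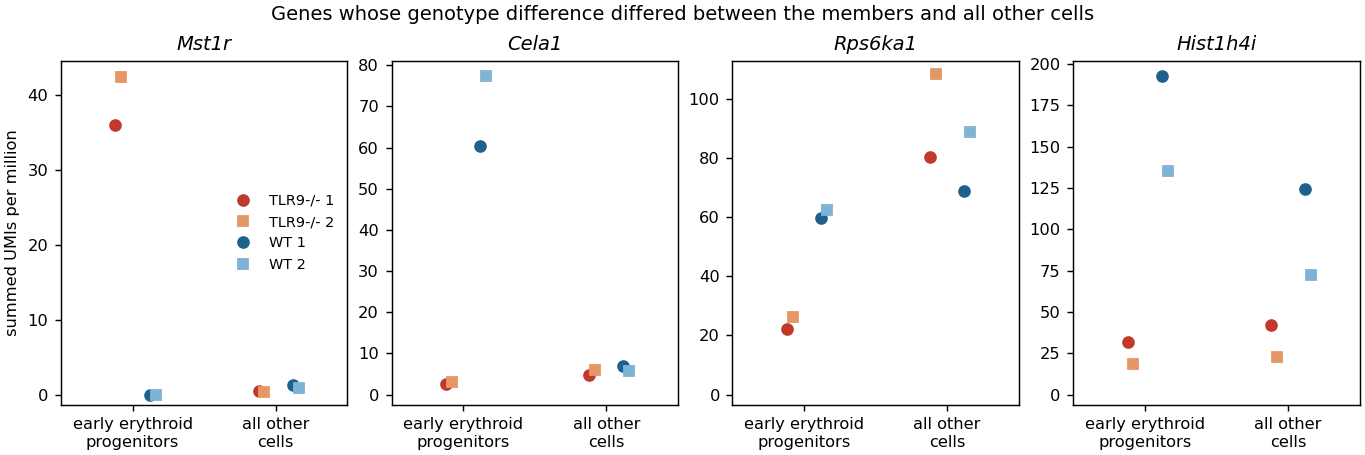
CPM of Mst1r, Cela1, Rps6ka1 and Hist1h4i in early erythroid progenitors (left in each panel) and in all other kept cells (right), 1 point per library. Mst1r was at 0 in WT members and at 36.1 and 42.4 CPM in TLR9-/- members, and Hist1h4i was lower in TLR9-/- in both groups of cells. Cela1 was highest in WT members (60.4 and 77.3 CPM, against 6.86 CPM or below in the other 6 values). The globin-rich cells, pooled here with all other kept cells, had 36.0 and 19.4 CPM of Cela1 in WT against 2.87 and 0 in TLR9-/-.

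Several further genes were seen in the members of 1 genotype only, and most of them differed in the same way in all other cells. BC018473 had 206 and 355 UMIs in TLR9-/- members and 0 in both WT libraries (at least 173-fold higher), Gm6594, a processed pseudogene, 114 and 382 against 0 (at least 134-fold), and Gm35082 122 and 313 against 0 (at least 124-fold). Cttnbp2, a cortactin-binding protein gene, had 33 and 97 UMIs against 0 (at least 36.0-fold). Gm16867 went the other way with 0 UMIs in both TLR9-/- libraries and 241 and 495 in WT (at least 282-fold lower). In all other cells BC018473 was at 163 and 258 CPM in TLR9-/- and 0.0738 and 0 in WT, Gm6594 at 72.0 and 114 against 0 and 0, Gm35082 at 25.2 and 33.4 against 0.0369 and 0.0304, and Gm16867 at 0.0218 and 0 against 27.0 and 15.1 CPM. Cttnbp2 was at 0.461 CPM or below there. BC018473 was above its level in TLR9-/- members there (47.0 and 35.3 CPM), and 32 of 379 and 51 of 583 members held it. These 5 differences passed edgeR's test with adjusted p values from 8.39e-07 (Gm16867) to 5.60e-04 (Cttnbp2). In members under 1% globin Gm6594 did not pass (edgeR adjusted p = 0.0546). Its log2 fold change there was 9.94, against 10.76 in all members, both fitted against a WT group at 0 UMIs. Gm15915, a transcript antisense to the netrin gene Ntn4 and inside it, had 1 and 2 UMIs against 176 and 417 (log2 fold change −7.70 ± 0.35 (SE), edgeR adjusted p = 8.39e-07). Like Mst1r it was an early transcript, with 74.5 and 80.7 CPM under 1% globin and 14.3 and 2.89 CPM at 5% to 20% in WT. Ntn4 was lower too, at 1.60 and 1.39 against 9.74 and 7.11 CPM, and how reads of overlapping genes were separated is not given in the sources used here.

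Of 5 histone genes of chromosome 13 that passed, 4 were lower and 1 higher in TLR9-/- members. They were looked at together after their values were seen. Hist1h2ac, a histone H2A gene, had 3.88 and 1.89 CPM in TLR9-/- members and 19.96 and 22.6 CPM in WT members, while Hist1h2bl, a histone H2B gene, had 8.68 and 10.1 against 1.70 and 1.10 CPM. Hist1h2ab had 2.51 and 3.68 against 11.9 and 22.0 CPM and Hist1h2bj 18.7 and 12.6 against 48.9 and 44.3 CPM. Hist1h2ab and Hist1h2bj each passed in 10 of 13 alternatives. The highest edgeR adjusted p was 0.131 for Hist1h2ab (without marked doublets, log2 fold change −2.37 against −2.42 in all). For Hist1h2bj it was 0.566 (members under 1% globin, log2 fold change −1.04 against −1.60 in all). Hist1h2bl passed in 12 of 13, and Hist1h2ac and Hist1h4i in 13. On chromosome 13, 9 of 420 tested genes passed (2.14%, against 0.465% of all genes). This was the highest share of any chromosome, and the 5 histone genes are among the 9. Of the 47 genes, 13 lay within 1 Mb of another, in 7 pairs. These include pairs of histone genes, of light chain segments, and Ntn4 with Gm15915 inside it. The share of all genes that lie so close was not counted. Histone genes are near-identical copies, so their counts are uncertain. Trim12a, of a family of antiviral factors, lies 486 kb from Hbb-bt on chromosome 7 and had 1 UMI in each TLR9-/- library against 40 and 48 in WT (log2 fold change −5.59 ± 0.63 (SE), edgeR adjusted p = 0.00129). In other cells it was likewise near 0 in TLR9-/- (0.0873 and 0.111 CPM) and at 37.3 and 36.7 CPM in WT.

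Further genes by the same rule were Gm9008 (7.31 and 7.95 against 0.487 and 0.123 CPM), the kinesin gene Kif21a (4.11 and 3.48 against 0.243 and 0.368 CPM) and the tubulin gene Tuba1a (13.5 and 25.4 against 1.95 and 2.09 CPM). Wdfy1, an endosomal adaptor of the receptors TLR3 and TLR4, had 14.6 and 14.7 against 3.65 and 2.58 CPM (log2 fold change 2.28 ± 0.28 (SE), edgeR adjusted p = 0.00287). Pafah2, a phospholipase that degrades platelet-activating factor, had 15.5 and 8.75 against 2.43 and 3.31 CPM, and Ocel1 57.5 and 58.0 against 16.6 and 15.6 CPM. On the lower side were Gm34084 (0 and 0.0994 against 7.06 and 5.64 CPM) and Gm37915 (0.685 and 0.994 against 19.96 and 15.1 CPM). In each of these the 2 values of a genotype lay apart from the 2 of the other, which the rule for naming required. Of all 10114 genes tested, 1935 lay apart in this way as higher and 2005 as lower. Each had the same direction in all other kept cells, and none passed the interaction test. There Ocel1 had 85.8 and 91.9 against 30.7 and 28.2 CPM, and Wdfy1 28.7 and 33.9 against 7.42 and 9.05 CPM. Gm34084 had 0.0873 and 0.111 against 18.0 and 35.5 CPM, and Pafah2 8.20 and 9.16 against 5.50 and 8.20 CPM. Kif21a passed in 6 of 13 alternatives, Pafah2 in 9 of 13, and the others named here in at least 11. Slc26a1, a sulfate transporter gene named after its values were seen, rose from 7.06 and 9.94 CPM in WT to 24.2 and 26.9 CPM in TLR9-/- members (log2 fold change 1.56 ± 0.23 (SE), edgeR adjusted p = 0.00959) and was at 0.131 CPM or below in all other cells.

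In 11 lists of erythroid, Epo signalling, haem, iron, membrane, globin, progenitor, cycle and ribosome genes, 1 of 191 tested genes passed (0.524%), close to the share over all genes (0.465%). It was Hjurp, the loader of the centromeric histone CENP-A, with 31.7 and 42.3 CPM in TLR9-/- and 76.4 and 84.4 CPM in WT members (log2 fold change −1.11 ± 0.19 (SE), edgeR adjusted p = 0.0265, 3.69e-06 to 0.158 over the alternatives). The globin gene Hbq1b had 25.3 and 26.9 against 55.7 and 38.0 CPM (log2 fold change −0.82 ± 0.21 (SE), edgeR adjusted p = 0.192) and passed in 3 of 13 alternatives, with no filter on low counts (0.00848), with a block for library number (0.0492) and when the WT library 2 was left out (0.00694). At an unadjusted p under 0.05, 3.81% of all genes were higher and 4.58% lower, and the counts of the lists are read against those shares. Of 7 stem and progenitor genes tested, 4 were higher at that level (Angpt1, Cd34, Gata2 and Muc13) and 0 lower, with a median log2 fold change of 0.84. Gata2 had 21.2 and 13.3 CPM in TLR9-/- and 7.30 and 7.85 CPM in WT members (log2 fold change 1.15 ± 0.28 (SE), edgeR adjusted p = 0.151). Of 17 membrane genes, 6 were lower at that level and 0 higher, with a median of −0.33. Slc4a1 had 209.6 and 274 against 409.9 and 384 CPM (log2 fold change −0.71 ± 0.17 (SE), edgeR adjusted p = 0.137). Of 17 iron and haem transport genes, 3 were lower (Tfrc, Slc25a37 and Abcb10) and 1 higher (Slc48a1). The median over all genes was −0.02.

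These list values moved with the globin classes. TLR9-/- members had 57.8% and 52.7% of cells under 1% globin and WT members 34.7% and 42.2%, so the lists were also read in the members under 1% globin alone. There the membrane median was 0.05, the haem synthesis median 0.26 (−0.02 in all members), the log2 fold change of Hbq1b 0.50 (−0.82 in all members), the S phase median −0.00066 (−0.12 in all members) and the ribosome biogenesis median −0.02 (0.16 in all members), and the stem and progenitor median was 0.62 over 5 genes. That restriction was chosen after the values were seen. It left 46 calls, and 33 of the 47 genes of the full comparison remained among them. Haem synthesis genes had 1 higher and 1 lower of 10 at an unadjusted p under 0.05: Alas1, the general form of the first enzyme, had 33.8 and 38.1 against 21.4 and 18.5 CPM, and Cpox 447 and 414 against 579 and 584 CPM. Neither passed (edgeR adjusted p = 0.0885 and 0.448). Alas1 lies 0.00657 Mb from Tlr9, and Cish, of the Epo signalling list, 1.07 Mb from it.

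For the other lists, values of the members with most UMIs stand for the rest. Epor had 90.4 and 109 CPM in TLR9-/- and 99.3 and 118 CPM in WT members, and of 9 tested genes of Epo signalling 1 was lower at an unadjusted p under 0.05 (Cish, 1.37 and 1.09 against 3.65 and 4.42 CPM). Car2 and Blvrb, erythroid progenitor genes, had log2 fold changes of 0.07 ± 0.19 and −0.09 ± 0.17 (SE). The factor genes Lmo2 and Zfpm1 had 0.18 ± 0.15 and −0.29 ± 0.17, the ferritin genes Fth1 and Ftl1 −0.09 ± 0.17 and −0.17 ± 0.18, and the haem gene Tmem14c −0.15 ± 0.17. The S phase genes Pcna and Slbp had −0.28 ± 0.15 and 0.04 ± 0.16. At an unadjusted p under 0.05, Gfi1b was higher and Foxo3 lower of 14 factor genes, Rrm1 lower of 40 S phase genes, Hemgn lower of 12 erythroid progenitor genes and Nop58 higher of 12 ribosome biogenesis genes. Isg15 had 101 and 172 CPM in TLR9-/- and 308 and 97.5 CPM in WT members, so the genotypes overlapped, and 0 of 20 interferon-stimulated genes passed, with 1 lower at an unadjusted p under 0.05 (Irf9). Hspa8, a constitutive heat shock chaperone, had 1482 and 1358 against 1009 and 1147 CPM (log2 fold change 0.40 ± 0.16 (SE), edgeR adjusted p = 0.546). Of the Toll-like receptor pathway, 5 genes were tested and 0 passed, with 0 at an unadjusted p under 0.05; Irak1 had −0.11 ± 0.19 and Unc93b1 −0.16 ± 0.28.

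**Figure D5:**
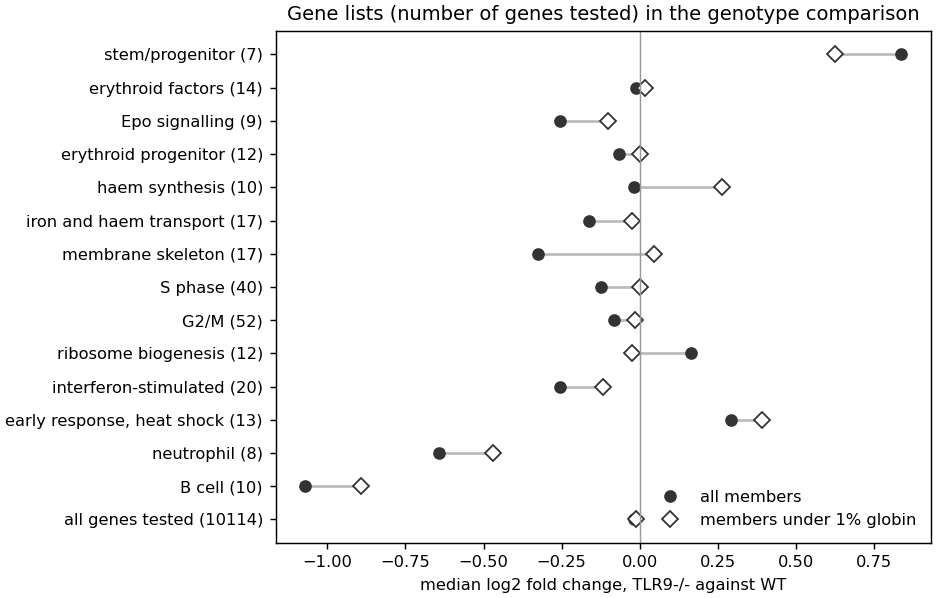
Median log2 fold change of TLR9-/- against WT for 14 gene lists and for all genes tested, in all members (filled circles) and in members under 1% globin (open diamonds), with the number of genes tested in all members in brackets. The membrane skeleton median went from −0.33 (17 genes) to 0.05 (16 genes) and the stem and progenitor median from 0.84 (7 genes) to 0.62 (5 genes). These 2 moves therefore include a change of genes. The neutrophil median went from −0.64 to −0.47 and the B cell median from −1.07 to −0.89.

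RNA of other marrow cells was found in the members. All 8 neutrophil genes were present, led by S100a9 with 116608 UMIs, and their sum was 9739 and 9165 CPM in TLR9-/- and 12542 and 14278 CPM in WT members, against 52920 to 110511 CPM in all other cells. More than 2 neutrophil UMIs were found in 16.4% and 24.0% of TLR9-/- and 11.6% and 65.02% of WT members. In the genotype comparison 0 of 8 neutrophil genes passed and 7 were lower at an unadjusted p under 0.05, with a median of −0.64. Over all genes 3.81% were higher and 4.58% lower at that level. The 10 B cell genes, led by Cd74 with 3252 UMIs, summed to 288 and 257 CPM in TLR9-/- and 744 and 537 CPM in WT members, and in all other cells to 4446 and 3986 against 9004 and 7762 CPM. Of them 3 were called lower in TLR9-/- members, where 0.287% of all genes were. These were Cd79a (21.0 and 28.3 against 76.4 and 50.9 CPM), Ighm (35.6 and 31.4 against 82.3 and 69.3 CPM) and Ms4a1 (1.37 and 1.69 against 12.9 and 6.01 CPM). The antibody light chain segments Igkv1-110 (0 and 0 UMIs against 30 and 52, at least 32.3-fold lower) and Igkv1-117 (4 and 3 UMIs against 51 and 51) were also called lower. Both rest on few cells: Igkv1-110 was held by 0 and 0 TLR9-/- members against 3 and 4 in WT, and Igkv1-117 by 4 and 1 against 4 and 6. Lists of 5 granule progenitor, 6 monocyte, 6 macrophage, 6 T and NK cell, 7 megakaryocyte, 7 basophil and mast cell and 3 eosinophil genes had 0 genes without a UMI. In that order their sums were 1484 to 3016, 576 to 991, 19.8 to 43.0, 41.1 to 112, 16.0 to 22.3, 1.70 to 9.38 and 0.307 to 1.77 CPM, and they were led by Elane, Lyz2, Vcam1, Nkg7, Gp9, Cpa3 and Prg3. Of the first 6 lists 5, 6, 4, 4, 3 and 1 genes were tested and 0 passed, and the eosinophil list was not compared. At an unadjusted p under 0.05, 1 monocyte gene and the 1 tested basophil and mast cell gene (log2 fold change 2.70) were higher, and 1 macrophage gene was lower.

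Members with at most 2 UMIs on each of the B cell, neutrophil and T and NK lists numbered 285 and 399 in TLR9-/- and 302 and 183 in WT, the last being 30.05% of the members of the WT library 2 and 68.4% to 75.2% of those of the other libraries. Among them 33 genes passed and 29 of the 47 remained. The B cell list holds Cd79a, Ighm and Ms4a1, so this choice of members itself lowers them. Ighm was not called (log2 fold change −0.68, edgeR adjusted p = 0.877, 7.49e-07 to 0.877 over the alternatives), and Cd79a, Ms4a1, Igkv1-110, Igkv1-117 and BC018473 were too low to test. Mst1r kept its call there (adjusted p = 5.13e-06), as did Cela1 (1.62e-07), Rps6ka1 (3.73e-04) and Hist1h4i (0.00415). Scrublet marked 7.39% and 10.1% of TLR9-/- members and 12.7% and 15.9% of WT members as doublets, and without them Cd79a, Ighm, Ms4a1 and Igkv1-117 did not pass while these 4 genes did. Log2 fold changes of the genes that did not pass were close to those of all members, −1.13 for Cd79a (−1.34 in all), −1.10 for Ighm (−1.18), −2.26 for Ms4a1 (−2.51) and −3.85 for Igkv1-117 (−4.12). The loss was not particular to B cell genes: of the 47 genes 46 could be tested without marked doublets and 30 remained called. Among others, Gm34084 (edgeR adjusted p = 0.146), Per1 (0.157) and Cap1 (0.129) did not pass either. The part of other cells' RNA in the remaining differences was not tested.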

How the data were processed

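Droplet libraries from the 5′ end of transcripts were made from marrow cells of 2 mice per genotype. The authors mapped reads to mm10 with Cell Ranger (3.0.1 per the file headers), and the deposited UMI counts per gene and cell, not normalized, were used as they stand. The submitters' notes also name STAR and Seurat 2.3.4. The methods print the mitochondrial limit as 0.10%, which was read as 10%. Members and gene lists were chosen with earlier results of these data known. Counts were summed per library, since cells of 1 mouse are not replicates, and compared with edgeR 4.0.16 (R 4.3.3; TMM, filterByExpr, quasi-likelihood test, two-sided); the rule's genes were left out of the test. The code was tested on simulated data. Named genes were those called with at least 50 UMIs, separated genotypes and the 12 largest changes each way, the called genes of each list or else its 2 with most UMIs, and Tlr9; some are not reported here. Doublets were kept, and marked by Scrublet's procedure in scanpy 1.11.5; in the WT library 2, where its threshold marked 0.0112%, the top 7.12% of scores were taken. Alternatives were DESeq2 1.42.0, other size factors, no filter, a block and stricter members.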

Additional observations from a re-analysis of the deposited data

Results flagged for a closer look

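The difference between genotypes in members differed from that in all other kept cells for 10 genes by edgeR's interaction test, and each is given as members minus other cells on the log2 scale. Mst1r had 14.13 (adjusted p = 3.65e-04), a fitted value that depends on the prior count since WT members held 0 UMIs. Cela1 had −4.44 (adjusted p = 3.14e-04), Rps6ka1 −1.64 (adjusted p = 0.00714) and Hist1h4i −1.15 (adjusted p = 0.0300). Pbx4, a homeobox gene, had 2.44 (adjusted p = 0.00714), with 19.8 and 17.6 CPM in TLR9-/- and 23.9 and 20.4 CPM in WT members, which were close, and 1.29 and 0.921 against 7.21 and 6.72 CPM in other cells. Ly6a, the stem cell antigen Sca-1, had −2.14 (adjusted p = 0.00356), with 2.65 and 3.41 against 33.6 and 14.9 CPM in members and 70.6 and 76.7 against 191 and 75.9 CPM in other cells. Klk1, a kallikrein gene, had −2.18 (adjusted p = 0.00714), with 2.90 and 4.15 against 11.8 and 4.41 CPM in members and 64.3 and 89.4 against 59.6 and 19.8 CPM in other cells.

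The other 3 are genes of B cells. Igll1, a part of the pre-B cell receptor, had 1.39 (adjusted p = 0.0124), with 18.3 and 9.37 against 12.1 and 9.87 CPM in members and 182 and 83.0 against 289 and 245 CPM in other cells. Igkv1-110 had −10.34 (adjusted p = 0.0151) and Igkv4-91 had 12.29 (adjusted p = 0.0289), both fitted against a group at 0 UMIs. Only 3 and 4 members of the WT libraries 1 and 2 held Igkv1-110. The light chain segments differ between single B cell clones, and their levels in other cells reached 118 CPM for Igkv4-91 in the WT library 2 and 6.16 CPM or below in the other libraries.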

How the results depend on the processing

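Of 47 genes called, 47 remained called with RLE size factors, with no filter on low counts (179 genes called), with the library number as a replicate block (137 called), and without the WT library 1. Without the TLR9-/- library 2, 26 remained, without the TLR9-/- library 1, 35, and without the WT library 2, 42. DESeq2 kept 41, members with at least 8 marker UMIs 44, globin under 5% 36, members without marked doublets 30 and those with at most 2 UMIs on each other-cell list 29. Leaving out 1 library gave 30 to 261 calls, lowest without the TLR9-/- replicate 2 and highest without the WT replicate 1, and the lone library is then assumed to vary like the other genotype. Every gene that could be tested kept its direction in all 13 alternatives. The numbers pair the libraries by number alone: deviations of same-numbered libraries correlated across genes (r = 0.38, 2 pairs). The interaction gave 89 calls with no filter on low counts and 10 with it. The cause of these changes was not tested.

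The difference in the share of members turned to 0.318 percentage points with globin under 5%, and ran from −1.91 to 1.11 points with 1 library left out. The replicate block, the mean of both same-numbered differences, gave −0.402. Of 615 alternative values of 48 named genes, 546 kept direction and side of the threshold, 26 lost the call, 3 gained it (all Hbq1b) and 40 turned direction, all of genes not called. With globin under 5% these were Ncl (−0.066), Kit (−0.089), Blvrb (0.027), Pim1 (0.11), Unc93b1 (0.022) and Fth1 (0.0056). With globin under 1%, chosen after seeing the data, they were Ncl (−0.18), Isg15 (0.0083), Kit (−0.25), Cldn13 (0.034), Blvrb (0.11), Hbq1b (0.50), Tmem14c (0.054), Pim1 (0.31) and Fth1 (0.042). With few UMIs on other-cell lists they were Ncl (−0.088) and Kit (−0.19), with at least 8 marker UMIs Kit (−0.085) and Unc93b1 (0.25), without marked doublets Kit (−0.020), and with the replicate block Kit (−0.012). With 1 library left out the ranges were −0.24 to 0.36 for Ncl, −0.29 to 0.13 for Irak1, −0.12 to 0.26 for Car2, −0.25 to 0.38 for Rhd, −1.16 to 0.49 for Isg15, −0.080 to 0.16 for Slbp, −0.17 to 0.19 for Kit, −0.52 to 0.058 for Cldn13, −0.20 to 0.012 for Blvrb, −0.34 to 0.010 for Ftl1, −0.53 to 0.41 for Ifitm3, −0.27 to 0.011 for Epor and −0.58 to 0.33 for Unc93b1.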
